A study of Mus musculus with 6 samples.

Results

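The genes described here are 50 that encode the machinery of mitosis and of the G2 to M transition of the cell cycle. They were taken by name, for their known roles, as mitotic kinases, cyclins, checkpoint, kinetochore, spindle, cytokinesis and chromosome condensation genes. Of the measured values, the rule asks only that a gene be above 0 in any library. The list was chosen with earlier results of these data known. All 50 of them were present and above 0 among the 15431 genes of the table, and all 50 stood at 1 CPM (reads of a gene scaled to a fixed library total) or more in every library, so none was lost to the filter on low values. RNA had been sequenced from flat cultures of epithelium of 3 regions of the mouse stomach. The groups were antrum (labelled together with the pylorus), corpus and forestomach, each wild type and labelled p2, with 2 libraries per region and 6 in all. Culture followed the study's own method for antrum and corpus and another laboratory's published method for forestomach, so region and culture conditions cannot be told apart in any comparison with forestomach. Sample IDs 75 and 76 recur in all 3 regions' titles, but no column of the table is tied to them. The age of the mice, and whether the libraries of a region came from separate animals or cultures, are not stated, so p-values measure only the spread between libraries, which may be technical.

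Entry into mitosis is driven by the kinase CDK1 bound to A-type and B-type cyclins, and exit begins when the anaphase promoting complex, a ubiquitin ligase, destroys those cyclins and securin. Between entry and exit, condensin compacts the chromosomes, kinetochores attach them to the spindle, the spindle checkpoint holds anaphase back, and the contractile ring divides the cell. Most of these genes are transcribed mainly from S phase to mitosis, so their transcripts are a common readout of how much of a population is cycling. In the animal, the squamous forestomach is renewed by dividing basal cells and the glands of corpus and antrum by dividing cells of the isthmus and gland base.

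Many G2/M promoters carry a CCAAT box (CCAAT), bound by the factor NF-Y, and a cell cycle genes homology region (TTTGAA or TTCGAA), bound by the repressor DREAM in resting cells and by MYBL2 and FOXM1 complexes in cycling ones. RefSeq promoter windows, from 250 bases before to 50 bases after the start of the gene, were matched for 43 of the 50 genes (46 windows). Read on both strands, the homology region was present in 35 of these 46 windows (76.1%), against 19.1% of the 32771 windows of all other genes. The CCAAT box was present in 34 windows (73.9%), against 37.3% of the others. Both were present in 30 windows (65.2%), against 7.43% of the others. The letters of the motifs do not overlap in the 4 windows printed below, and this was not checked in the rest. The 4 windows were picked because they hold both motifs, so the presence of the motifs in them is not a result. They belong to genes of different steps of mitosis that were called lower in both glandular cultures than in forestomach. Among such genes with both motifs, these had the largest falls in corpus. Cdc20 lies at chr4:118437294-118437593 on the minus strand, Spc25 at chr2:69206164-69206463 on the minus strand, Prc1 at chr7:80294201-80294500 on the plus strand and Aurka at chr2:172370521-172370820 on the minus strand, in RefSeq's build GRCm38.p6, which is not the mm9 build named in the submitters' processing notes. Sequences run 5′ to 3′ along the gene's strand, with the CCAAT box and the homology region in capitals.
Cdc20: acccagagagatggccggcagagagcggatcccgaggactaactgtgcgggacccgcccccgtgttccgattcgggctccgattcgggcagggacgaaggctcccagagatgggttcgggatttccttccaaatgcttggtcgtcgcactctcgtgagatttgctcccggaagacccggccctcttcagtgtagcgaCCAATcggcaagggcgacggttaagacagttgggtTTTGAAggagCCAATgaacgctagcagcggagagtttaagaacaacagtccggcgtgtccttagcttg
Spc25: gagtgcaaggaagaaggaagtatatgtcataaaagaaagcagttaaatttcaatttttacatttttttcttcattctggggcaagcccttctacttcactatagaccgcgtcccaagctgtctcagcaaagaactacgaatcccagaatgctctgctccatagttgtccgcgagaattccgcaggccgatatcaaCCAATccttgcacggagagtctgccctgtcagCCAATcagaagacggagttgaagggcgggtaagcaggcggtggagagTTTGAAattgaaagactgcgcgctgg
Prc1: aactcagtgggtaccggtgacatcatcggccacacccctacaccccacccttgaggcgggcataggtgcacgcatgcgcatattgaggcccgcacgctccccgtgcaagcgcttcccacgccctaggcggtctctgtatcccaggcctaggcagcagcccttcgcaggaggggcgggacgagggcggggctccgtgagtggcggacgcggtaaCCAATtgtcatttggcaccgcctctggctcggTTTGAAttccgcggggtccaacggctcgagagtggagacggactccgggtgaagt
Aurka: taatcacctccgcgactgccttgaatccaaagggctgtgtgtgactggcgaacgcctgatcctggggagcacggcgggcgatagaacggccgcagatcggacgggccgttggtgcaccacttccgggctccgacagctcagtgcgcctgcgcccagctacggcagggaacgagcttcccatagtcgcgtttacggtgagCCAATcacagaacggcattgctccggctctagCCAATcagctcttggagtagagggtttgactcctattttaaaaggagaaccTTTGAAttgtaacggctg
The CCAAT boxes nearest to the homology region began 8 bases before the start in Cdc20, 23 in Spc25, 37 in Prc1 and 19 in Aurka. The homology region itself began 18 bases before the start in Cdc20 and 5 before it in Prc1, and at base 25 of the gene in Spc25 and base 33 in Aurka. A match describes the letters in the window and does not show that a factor binds there.

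The libraries had 36.9 to 47.7 M reads in all, of which 14.0 to 18.2 M lay on listed genes, so that 3 reads corresponded to 0.063 to 0.081 CPM. The listed genes held 33.1% to 48.3% of the CPM scale, highest in forestomach 1 and lowest in corpus 2, and a scaling by all reads therefore carries this difference. Summed squamous basal markers (Krt5, Krt14, Krt15, Trp63 and Col17a1) were 4.98 and 3.69 CPM in antrum, 3.23 and 4.87 CPM in corpus, and 12285 and 10651 CPM in forestomach. Summed columnar markers (Krt8, Krt18, Krt19, Cldn18, Muc5ac, Pgc and Gkn1) were 6231 and 4245 CPM in antrum, 6894 and 6076 CPM in corpus, and 30.3 and 34.0 CPM in forestomach. The squamous and columnar markers thus matched the labels of forestomach and of the glandular cultures. No markers were used to tell antrum from corpus. Fibroblast or feeder cell markers, 10 genes, summed to 68.2 and 59.9 CPM in antrum, 103 and 50 CPM in corpus, and 0.42 and 0.24 CPM in forestomach. Among them Col1a2, Col3a1, Pdgfrb, Lum and Thy1 were at 0 in both forestomach libraries. The 6 that reached the filter level did so only through the glandular libraries, so their higher level there is a description and not a test. Their part in the results on mitotic genes was not tested. The counting of strand is not given in the sources used here, and 11 members overlap a gene on the opposite strand in exons (Ccna2, Cdc20, Cdc25b, Kif20a, Kif4, Ncapg, Nek2, Nusap1, Plk1, Prc1 and Ube2c), while Ccnb1, Ccnb2, Kif22 and Kif4 have pseudogene copies, so their levels carry this uncertainty. Immune markers summed to 0.08 to 0.37 CPM, endothelial markers to 0.10 to 1.55 CPM and smooth muscle markers to 0.46 to 4.03 CPM per library.

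The mitotic genes stood lower in both glandular cultures than in forestomach cultures. Their summed level was 1397 and 2099.7 CPM in antrum 1 and 2, 1133 and 1162 CPM in corpus 1 and 2, and 3924 and 2553 CPM in forestomach 1 and 2. On this scale the glandular libraries all lay below both forestomach libraries, and the corpus libraries lay below both antrum libraries. As a share of the listed CPM, the genes made up 0.325% and 0.563% in antrum, 0.298% and 0.351% in corpus, and 0.813% and 0.648% in forestomach. By this share all glandular libraries stayed below forestomach, but corpus 2 lay above antrum 1. In bulk RNA, fewer cycling cells and less mitotic RNA per cell cannot be told apart.

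**Figure D1:**
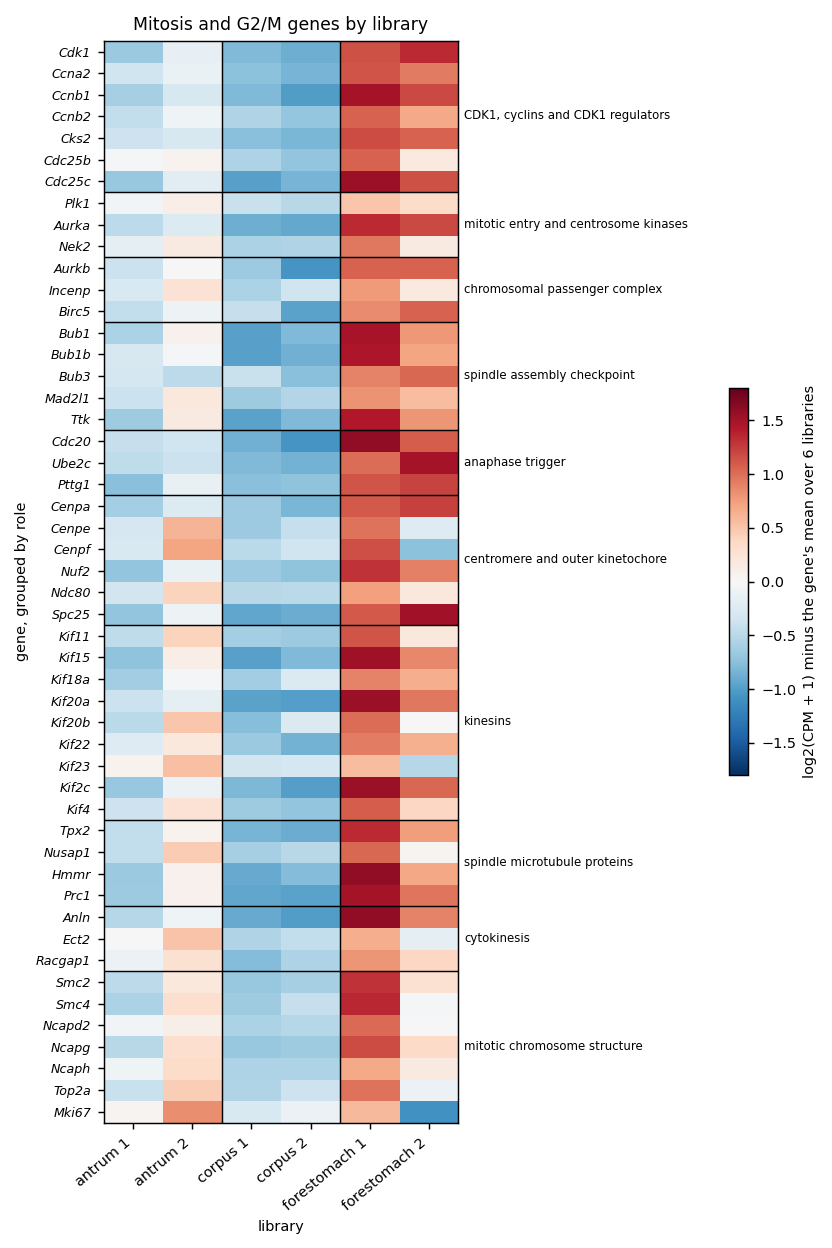
Each of the 50 genes (rows, grouped by role) in each of the 6 libraries (columns), coloured by its log2(CPM + 1) minus that gene's mean over the 6 libraries. Antrum 1 and both corpus columns are below the mean for most genes and forestomach columns above it. Antrum 2 is above the mean in rows such as Kif11 and Top2a and below it in rows such as Cdk1 and Cdc20. Forestomach 2 is closer to the glandular libraries than forestomach 1 in rows such as Cenpf and Mki67.

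In antrum over forestomach, 28 of the 50 genes fell, none rose and 22 were not called, where 18.7% of all 11891 tested genes fell and 20.2% rose (limma on log2(CPM + 1), Benjamini-Hochberg adjusted p under 0.05). In 35 of the 50, both antrum libraries lay below both forestomach libraries, against 35.5% of all tested genes. The median log2 fold change of the 50 was -1.18, against -0.03 for all tested genes, with a range of -1.78 to 0.70. In corpus over forestomach, 42 of the 50 fell, none rose and 8 were not called, where 26.5% of all tested genes fell and 17.1% rose. Both corpus libraries lay below both forestomach libraries in 47 of the 50, against 44.3% of all tested genes. The median of the 50 was -1.54, against -0.23 for all tested genes, with a range of -2.31 to 0.06. The comparisons share the forestomach libraries, and log2 fold changes given for antrum or for corpus are over forestomach, on the log2(CPM + 1) scale, which understates the change of low genes. Cenpe, Cenpf, Kif20b, Kif23, Ect2, Smc4, Top2a and Mki67 were called in neither. Of the 28 genes called in both, 23 had a promoter window and 14 of these held both motifs, and of the other members 20 had a window and 13 of these held both.

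These counts depended on single libraries, and so did the counts of all tested genes that fell. Without single libraries, the median of the 50 relative to all tested genes was -1.37 to -0.86 in antrum. In corpus it was -1.41 to -1.29. Without antrum 1, 14 genes fell in antrum, and the calls of Anln, Aurkb, Birc5, Bub1, Bub1b, Ccna2, Ccnb2, Hmmr, Kif15, Kif18a, Kif22, Prc1, Tpx2 and Ttk were lost. Without forestomach 1, 22 fell (Bub1, Hmmr, Kif15, Kif18a, Kif22 and Ttk were lost) and Kif23 and Mki67 rose, and without forestomach 2, 35 fell. In corpus, 28 genes fell without corpus 1, 30 without corpus 2, 35 without forestomach 1 and 49 without forestomach 2. The calls of Incenp, Kif11, Ncapg, Ncaph, Ndc80, Nusap1 and Smc2 were lost without any of the first 3 of these libraries, those of Cdc25b, Nek2 and Plk1 without either corpus library, that of Ncapd2 without any antrum or corpus library, those of Kif18a, Mad2l1 and Racgap1 without corpus 1 and that of Kif4 without corpus 2. Scaling by a common median ratio raised the median of all tested genes by over 0.1 on the log2 scale in corpus over forestomach, to 0.06, and relative to it the 50 genes had a median of -1.29, against -1.31 on the deposited scale. The number that fell was then 28 in antrum and 38 in corpus, where Incenp, Ndc80, Nusap1 and Plk1 were no longer called (scaled to the listed total, Incenp, Kif11, Ncapd2, Ncaph, Ndc80 and Nusap1 were not), and all tested genes split into 3092 higher and 2548 lower in corpus, against 2032 and 3146 as deposited.

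**Figure D2:**
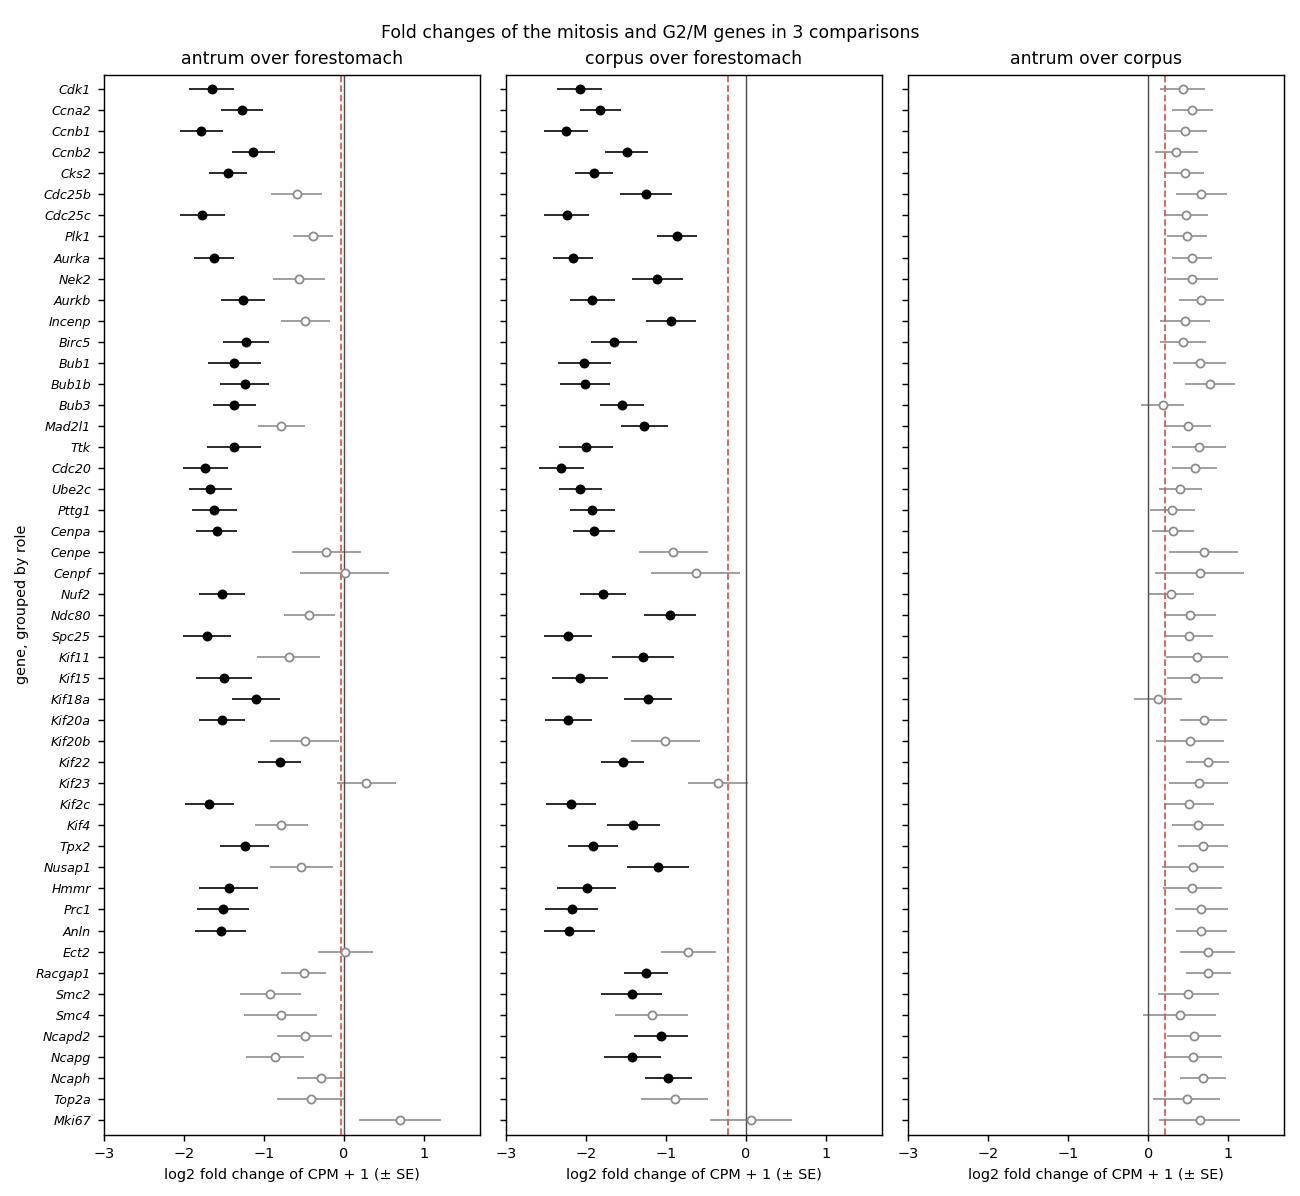
Log2 fold change of each of the 50 genes in antrum over forestomach, corpus over forestomach and antrum over corpus, with bars of ± 1 SE. Filled black points passed an adjusted p of 0.05, open grey points did not, and the dashed red line is the median of all tested genes. The points that passed all lie left of that line, 28 in the first panel and 42 in the second, and none passed in the third.

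CDK1, its cyclins and their regulators had 6 of 7 genes lower in antrum and 7 of 7 lower in corpus. Their median log2 fold changes, relative to all tested genes, were -1.41 and -1.67. The kinase gene Cdk1 had 27.6 and 40.2 CPM in antrum, 25.4 and 23.7 CPM in corpus, and 99.7 and 115 CPM in forestomach. Its forestomach libraries stood well above all 4 glandular ones, and the log2 fold change was -1.65 (adjusted p = 0.00139, SE 0.28) in antrum and -2.08 (adjusted p = 0.000337, SE 0.28) in corpus. Ccnb1, which encodes cyclin B1, the partner that carries CDK1 into mitosis, had 25.2 and 31.5 CPM in antrum, 21.7 and 18.7 CPM in corpus, and 110.2 and 89.3 CPM in forestomach. Again no glandular library came near forestomach, with a log2 fold change of -1.78 (adjusted p = 0.000704, SE 0.27) in antrum and -2.25 (adjusted p = 0.000165, SE 0.27) in corpus. The second B-type cyclin gene, Ccnb2, had 23.8 and 30.8 CPM in antrum, 22.2 and 19.8 CPM in corpus, and 69.2 and 53.1 CPM in forestomach. Its groups did not overlap with forestomach either, but the change was smaller, with a log2 fold change of -1.13 (adjusted p = 0.0101, SE 0.27) in antrum and -1.49 (adjusted p = 0.00217, SE 0.27) in corpus. Without antrum 1 the antrum value of Ccnb2 was -0.95 (adjusted p = 0.105). Cdc25c, a phosphatase that activates CDK1, had 3.56 and 5.39 CPM in antrum, 2.71 and 3.08 CPM in corpus, and 20.1 and 15.1 CPM in forestomach. Its libraries were separate from forestomach in the same way, with a log2 fold change of -1.77 (adjusted p = 0.000928, SE 0.28) in antrum and -2.24 (adjusted p = 0.000213, SE 0.28) in corpus.

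The remaining genes of this group were the S and G2 phase cyclin Ccna2, the small CDK subunit Cks2 and the phosphatase Cdc25b. Ccna2 had 46.5 and 54.9 CPM in antrum, 35.4 and 32.9 CPM in corpus, and 132 and 115 CPM in forestomach, with every glandular library below both forestomach ones and a log2 fold change of -1.27 (adjusted p = 0.00411, SE 0.26) in antrum and -1.82 (adjusted p = 0.00048, SE 0.26) in corpus. Cks2, among the steadiest genes between the forestomach libraries, had 3.92 and 4.2 CPM in antrum, 2.77 and 2.6 CPM in corpus, and 13.3 and 12.2 CPM in forestomach. It was lower in both cultures, with a log2 fold change of -1.45 (adjusted p = 0.00112, SE 0.24) in antrum and -1.90 (adjusted p = 0.000206, SE 0.24) in corpus. Cdc25b had 12.9 and 13.8 CPM in antrum, 8.63 and 7.6 CPM in corpus, and 28.4 and 14.9 CPM in forestomach. Its antrum libraries came close to forestomach 2, and it was not called in antrum, with a log2 fold change of -0.59 (adjusted p = 0.178, SE 0.32), but fell in corpus, with -1.25 (adjusted p = 0.0122, SE 0.32).

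**Figure D3:**
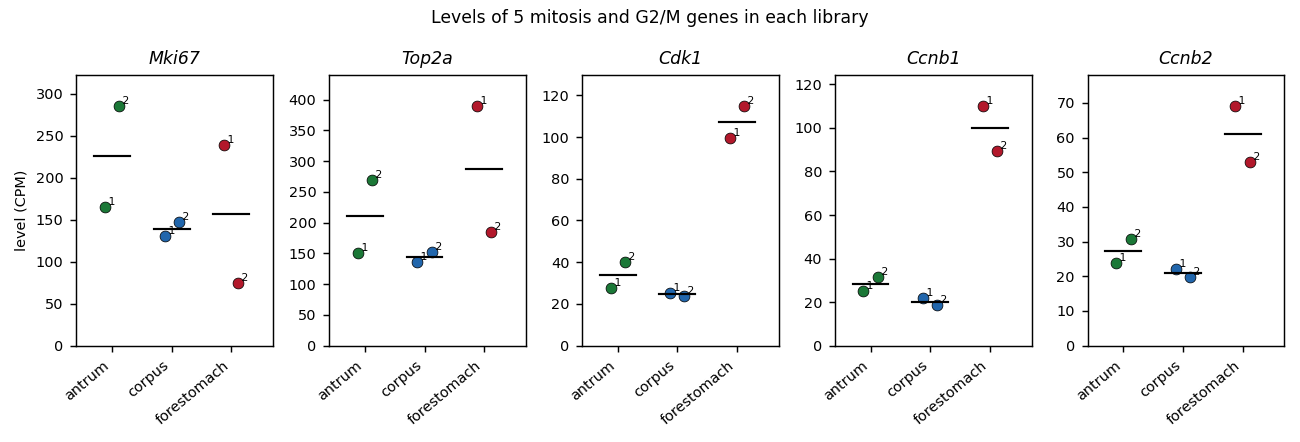
CPM of Mki67, Top2a, Cdk1, Ccnb1 and Ccnb2 in each library, points numbered 1 and 2 after the library and lines at the group mean, with antrum, corpus and forestomach from left to right. Cdk1, Ccnb1 and Ccnb2 show forestomach points clear of all glandular ones, whereas for Mki67 forestomach 1 (239 CPM) and forestomach 2 (74.1 CPM) lie on either side of both corpus libraries.

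The kinases of centrosome and spindle differed among themselves. Aurka, the Aurora kinase of spindle poles whose promoter is printed above, had 16.0 and 18.9 CPM in antrum, 11.8 and 11.4 CPM in corpus, and 58.6 and 52.6 CPM in forestomach. All glandular libraries were below forestomach by a wide margin, with a log2 fold change of -1.62 (adjusted p = 0.000826, SE 0.25) in antrum and -2.16 (adjusted p = 0.000137, SE 0.25) in corpus. Nek2, a kinase of centrosome separation, had 18.6 and 23.6 CPM in antrum, 13.9 and 14.2 CPM in corpus, and 41.6 and 23.6 CPM in forestomach. Antrum 2 equalled forestomach 2 to the digits given, and Nek2 was not called in antrum, with a log2 fold change of -0.56 (adjusted p = 0.192, SE 0.32), but fell in corpus, with -1.11 (adjusted p = 0.0192, SE 0.32). Plk1, the polo-like kinase of mitotic entry, had 26.7 and 29.9 CPM in antrum, 20.6 and 19.3 CPM in corpus, and 39.2 and 35.0 CPM in forestomach. Antrum again lay only slightly below forestomach and was not called, with a log2 fold change of -0.38 (adjusted p = 0.258, SE 0.25), while corpus fell, with -0.86 (adjusted p = 0.0202, SE 0.25). For Nek2 the corpus call did not hold without corpus 1 (adjusted p = 0.1) or without corpus 2 (adjusted p = 0.106).

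The chromosomal passenger complex corrects faulty kinetochore attachments, and its genes for the kinase Aurkb, the scaffold Incenp and survivin, Birc5, were lower in corpus in 3 of 3 cases and in antrum in 2 of 3. Aurkb had 14.6 and 19.3 CPM in antrum, 12 and 8.77 CPM in corpus, and 41.8 and 41.5 CPM in forestomach. The forestomach libraries were almost identical and all glandular ones lay below them, with a log2 fold change of -1.26 (adjusted p = 0.0058, SE 0.28) in antrum and -1.92 (adjusted p = 0.000494, SE 0.28) in corpus. Birc5 had 14.3 and 18.5 CPM in antrum, 14.5 and 9.59 CPM in corpus, and 36.4 and 42.4 CPM in forestomach. Its glandular libraries also kept clear of forestomach, with a log2 fold change of -1.22 (adjusted p = 0.00918, SE 0.29) in antrum and -1.65 (adjusted p = 0.00163, SE 0.29) in corpus. Incenp had 14.2 and 21.1 CPM in antrum, 11.4 and 13.4 CPM in corpus, and 30.3 and 19.9 CPM in forestomach. Antrum 2 lay above forestomach 2, and it was not called in antrum, with a log2 fold change of -0.48 (adjusted p = 0.249, SE 0.31), but fell in corpus, with -0.94 (adjusted p = 0.0347, SE 0.31). Without antrum 1 the antrum calls of Aurkb (adjusted p = 0.0692) and Birc5 (adjusted p = 0.0883) were lost.

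The spindle assembly checkpoint, which keeps anaphase waiting for unattached kinetochores, had 4 of 5 genes lower in antrum and 5 of 5 lower in corpus. The medians relative to all tested genes were -1.33 and -1.77. Bub1, a checkpoint kinase, had 13.7 and 21.9 CPM in antrum, 10 and 11.5 CPM in corpus, and 60.0 and 36.2 CPM in forestomach. Forestomach 1 was well above forestomach 2, yet all glandular libraries were lower than either, with a log2 fold change of -1.37 (adjusted p = 0.0101, SE 0.33) in antrum and -2.02 (adjusted p = 0.00114, SE 0.33) in corpus. Bub1b, which encodes the APC/C inhibitor BubR1, had 24.1 and 28.8 CPM in antrum, 14.5 and 15.7 CPM in corpus, and 82.7 and 49.0 CPM in forestomach. The pattern was the same, with a log2 fold change of -1.24 (adjusted p = 0.0109, SE 0.31) in antrum and -2.01 (adjusted p = 0.000706, SE 0.31) in corpus. Bub3, the adaptor of both, had 50.5 and 45.6 CPM in antrum, 47.9 and 37.1 CPM in corpus, and 119 and 131 CPM in forestomach. It differed from its partners in that forestomach 2 was the higher library, and it fell, with a log2 fold change of -1.37 (adjusted p = 0.0032, SE 0.27) in antrum and -1.55 (adjusted p = 0.00147, SE 0.27) in corpus. Ttk, the kinase that starts checkpoint signalling, had log2 fold changes of -1.37 (adjusted p = 0.012, SE 0.34) and -2.0 (adjusted p = 0.00145, SE 0.34). Mad2l1, which binds CDC20, had a log2 fold change of -0.78 (adjusted p = 0.0565, SE 0.29) in antrum, not called, and -1.27 (adjusted p = 0.00628, SE 0.29) in corpus. The antrum calls of Bub1 and Bub1b were lost without antrum 1 (adjusted p = 0.101 and 0.0897), and that of Bub1 also without forestomach 1 (adjusted p = 0.0512).

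The trigger of anaphase had the largest median falls of the 10 roles, with 3 of 3 genes lower in both cultures and medians relative to all tested genes of -1.64 in antrum and -1.83 in corpus. Cdc20, the activator of the anaphase promoting complex, had 39.9 and 41.4 CPM in antrum, 28.9 and 24.9 CPM in corpus, and 163 and 115 CPM in forestomach. The glandular libraries were far below both forestomach ones, with a log2 fold change of -1.73 (adjusted p = 0.00103, SE 0.28) in antrum and -2.31 (adjusted p = 0.000169, SE 0.28) in corpus, the lowest corpus value among the 50 genes. Ube2c, the ubiquitin-conjugating enzyme of the complex, had 20.3 and 21.4 CPM in antrum, 15.9 and 15.3 CPM in corpus, and 57.7 and 81.5 CPM in forestomach. Here forestomach 2 was higher than forestomach 1, with a log2 fold change of -1.67 (adjusted p = 0.00105, SE 0.27) in antrum and -2.07 (adjusted p = 0.000285, SE 0.27) in corpus. Pttg1, which encodes securin, had 8.16 and 13.1 CPM in antrum, 8.14 and 8.33 CPM in corpus, and 32.9 and 34.9 CPM in forestomach. Its forestomach libraries were nearly equal and the glandular ones were all far lower, with a log2 fold change of -1.62 (adjusted p = 0.0017, SE 0.28) in antrum and -1.92 (adjusted p = 0.00059, SE 0.28) in corpus.

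Centromere and kinetochore genes were mixed, with 3 of 6 lower in antrum and 4 of 6 lower in corpus. Cenpa, the histone H3 variant that marks the centromere, had 12.4 and 16.4 CPM in antrum, 12.1 and 10.6 CPM in corpus, and 43.2 and 47.0 CPM in forestomach. The forestomach libraries agreed closely and stood above all others, with a log2 fold change of -1.59 (adjusted p = 0.0012, SE 0.26) in antrum and -1.90 (adjusted p = 0.000404, SE 0.26) in corpus. Spc25, a subunit of the microtubule-binding NDC80 complex, had 8.31 and 13.3 CPM in antrum, 7.0 and 7.2 CPM in corpus, and 31.7 and 42.6 CPM in forestomach. Its groups were also separate, with a log2 fold change of -1.71 (adjusted p = 0.00171, SE 0.30) in antrum and -2.22 (adjusted p = 0.000344, SE 0.30) in corpus. A second subunit, Nuf2, fell, with a log2 fold change of -1.52 (adjusted p = 0.00309, SE 0.29) and -1.79 (adjusted p = 0.00109, SE 0.29), whereas Ndc80 itself had -0.43 (adjusted p = 0.323, SE 0.32), not called, in antrum and -0.95 (adjusted p = 0.0384, SE 0.32) in corpus. Cenpe, the kinetochore motor, had 25.4 and 48.9 CPM in antrum, 19.7 and 23.5 CPM in corpus, and 63.0 and 26.8 CPM in forestomach. Antrum 2 lay between the forestomach libraries, and neither value was called, with a log2 fold change of -0.22 (adjusted p = 0.723, SE 0.43) in antrum and -0.91 (adjusted p = 0.121, SE 0.43) in corpus. Cenpf, a large kinetochore and nuclear matrix protein, had 31.6 and 63.5 CPM in antrum, 27.2 and 29.6 CPM in corpus, and 86.7 and 22.6 CPM in forestomach. Forestomach 2 was the lowest of all 6 libraries and forestomach 1 the highest, with a log2 fold change of 0.01 (adjusted p = 0.991, SE 0.56) in antrum and -0.63 (adjusted p = 0.39, SE 0.56) in corpus.

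Of the 9 kinesins, motors that build the spindle and move chromosomes along it, 5 were lower in antrum and 7 in corpus. Kif20a, which brings the passenger complex to the midzone, had 21.3 and 25 CPM in antrum, 14.0 and 13.7 CPM in corpus, and 84.1 and 55 CPM in forestomach. Its forestomach libraries stood above every glandular one, with a log2 fold change of -1.52 (adjusted p = 0.00256, SE 0.29) in antrum and -2.22 (adjusted p = 0.000268, SE 0.29) in corpus. Kif2c, a microtubule depolymerase, had 10.6 and 16.3 CPM in antrum, 9.6 and 8.33 CPM in corpus, and 53.3 and 37.0 CPM in forestomach. It showed the same separation, with a log2 fold change of -1.68 (adjusted p = 0.00213, SE 0.31) in antrum and -2.19 (adjusted p = 0.000429, SE 0.31) in corpus. Kif15, Kif18a and Kif22 also fell in both cultures, with log2 fold changes of -1.50, -1.10 and -0.80 in antrum and -2.08, -1.22 and -1.54 in corpus. The antrum call of Kif22 (adjusted p = 0.0434) was lost when any single library other than forestomach 2 was left out, and also with no filter (adjusted p = 0.0532), scaled to the listed total (adjusted p = 0.0513) and in the fit of 2 groups only (adjusted p = 0.0982). Kif11, the motor that separates the spindle poles, and the chromokinesin Kif4 fell in corpus, with log2 fold changes of -1.29 and -1.41, and were not called in antrum, at -0.69 and -0.78. Kif23, the motor of centralspindlin, had 42.6 and 59.5 CPM in antrum, 32.1 and 32.4 CPM in corpus, and 60.4 and 28.2 CPM in forestomach. Forestomach 2 lay below all glandular libraries, and neither value was called, with a log2 fold change of 0.28 (adjusted p = 0.583, SE 0.37) in antrum and -0.35 (adjusted p = 0.472, SE 0.37) in corpus. Kif20b had a log2 fold change of -0.49 (adjusted p = 0.397, SE 0.43) in antrum and -1.01 (adjusted p = 0.0843, SE 0.43) in corpus, also not called.

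Proteins of the spindle midzone and of cytokinesis showed both patterns. Prc1, which bundles the antiparallel microtubules of the midzone, had 32.8 and 54.9 CPM in antrum, 26.7 and 26.2 CPM in corpus, and 149 and 102 CPM in forestomach. Glandular libraries lay below both forestomach libraries, with a log2 fold change of -1.51 (adjusted p = 0.00547, SE 0.33) in antrum and -2.18 (adjusted p = 0.000647, SE 0.33) in corpus. Hmmr, a spindle assembly factor, had 18.6 and 32.0 CPM in antrum, 15.6 and 17.1 CPM in corpus, and 92.9 and 49.6 CPM in forestomach. The forestomach libraries were wide apart but still both above the rest, with a log2 fold change of -1.44 (adjusted p = 0.0127, SE 0.37) in antrum and -1.99 (adjusted p = 0.00213, SE 0.37) in corpus. Tpx2, the activator of Aurora A, fell, with a log2 fold change of -1.24 (adjusted p = 0.0115, SE 0.31) in antrum and -1.91 (adjusted p = 0.000987, SE 0.31) in corpus, and Nusap1 was not called in antrum, with -0.53 (adjusted p = 0.316, SE 0.39), but fell in corpus, with -1.10 (adjusted p = 0.0492, SE 0.39). With the column number as a replicate block the corpus calls of Nusap1 (adjusted p = 0.0863) and of Ndc80 (adjusted p = 0.0575) were lost. Anln, which encodes the contractile ring scaffold anillin, had 48.4 and 66.1 CPM in antrum, 36.5 and 34.2 CPM in corpus, and 213 and 130.2 CPM in forestomach. No library of the groups overlapped, with a log2 fold change of -1.54 (adjusted p = 0.00428, SE 0.32) in antrum and -2.21 (adjusted p = 0.000513, SE 0.32) in corpus. Without antrum 1 the antrum calls of Prc1, Hmmr and Anln were lost (adjusted p = 0.0716, 0.121 and 0.0556).

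The other cytokinesis genes did not follow anillin. Racgap1, the partner of Kif23 in centralspindlin, had 31.9 and 42.2 CPM in antrum, 19.7 and 23.3 CPM in corpus, and 60.6 and 44.9 CPM in forestomach. Antrum 2 came close to forestomach 2, and the gene was not called in antrum, with a log2 fold change of -0.50 (adjusted p = 0.198, SE 0.28), but fell in corpus, with -1.25 (adjusted p = 0.00665, SE 0.28). Its corpus call was lost without corpus 1 (adjusted p = 0.07). Ect2, the exchange factor that centralspindlin recruits to start furrowing, had 58.0 and 82.7 CPM in antrum, 39.6 and 42.3 CPM in corpus, and 91.2 and 50.9 CPM in forestomach. Its antrum libraries lay between those of forestomach, and neither value was called, with a log2 fold change of 0.02 (adjusted p = 0.968, SE 0.34) in antrum and -0.72 (adjusted p = 0.113, SE 0.34) in corpus.

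Of the 7 genes of mitotic chromosome structure, 0 were called in antrum and 4 fell in corpus. The medians relative to all tested genes were -0.46 and -0.83. Top2a, the topoisomerase that untangles sister chromatids, had 150.3 and 270.1 CPM in antrum, 136 and 153 CPM in corpus, and 390.2 and 185 CPM in forestomach. Antrum 2 lay between the forestomach libraries, and neither value was called, with a log2 fold change of -0.41 (adjusted p = 0.468, SE 0.42) in antrum and -0.89 (adjusted p = 0.113, SE 0.42) in corpus. Mki67, whose protein Ki-67 coats mitotic chromosomes and marks cycling cells in histology, had 165 and 286 CPM in antrum, 131 and 147 CPM in corpus, and 239 and 74.1 CPM in forestomach. Antrum 2 was the highest library of all and forestomach 2 the lowest, and neither value was called, with a log2 fold change of 0.70 (adjusted p = 0.307, SE 0.51) in antrum and 0.06 (adjusted p = 0.939, SE 0.51) in corpus. Without forestomach 1 the antrum value of Mki67 was 1.54 (adjusted p = 0.0229), and without forestomach 2 it was -0.14 (adjusted p = 0.781), so its direction rested on a single forestomach library.

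The condensin genes lay between these extremes. Smc2, 1 of the paired ATPases of condensin, had 31.1 and 49.5 CPM in antrum, 26.6 and 28.4 CPM in corpus, and 108 and 52.5 CPM in forestomach. Antrum 2 reached almost to forestomach 2, and the gene was not called in antrum, with a log2 fold change of -0.92 (adjusted p = 0.0812, SE 0.38), but fell in corpus, with -1.43 (adjusted p = 0.0137, SE 0.38). Ncapg, a condensin I subunit, had 15.6 and 27.9 CPM in antrum, 13.6 and 14.0 CPM in corpus, and 52.0 and 28.8 CPM in forestomach. It showed the same closeness of antrum 2 to forestomach 2, with a log2 fold change of -0.86 (adjusted p = 0.09, SE 0.36), not called, in antrum and -1.42 (adjusted p = 0.0117, SE 0.36) in corpus. Ncapd2 and Ncaph had log2 fold changes of -0.49 and -0.29 in antrum that were not called, and fell in corpus, with -1.06 and -0.97. The corpus call of Ncapd2 was lost in the fit of 2 groups only (adjusted p = 0.059) and scaled to the listed total (adjusted p = 0.0517). Smc4, the other ATPase, had 39.2 and 72.6 CPM in antrum, 37.3 and 43.9 CPM in corpus, and 151 and 57.1 CPM in forestomach. Antrum 2 was above forestomach 2, and neither value was called, with a log2 fold change of -0.79 (adjusted p = 0.206, SE 0.46) in antrum and -1.18 (adjusted p = 0.0649, SE 0.46) in corpus. The corpus calls of Smc2 and Ncapg were lost without corpus 1 (adjusted p = 0.0728 and 0.0627), without corpus 2 (adjusted p = 0.0664 and 0.0643) and without forestomach 1 (adjusted p = 0.0587 and 0.0714).

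The forestomach libraries held the widest differences of single genes within a region, up to 3.84-fold among the 50, against 2.04-fold in antrum and 1.51-fold in corpus. Forestomach 1 was the higher library for 43 of the 50 genes, as it was for 76.8% of the 6882 genes with at least 5 CPM in every library. The higher level was over 2-fold the lower in 10 of the 50 (20.0%), against 15.6% of the 6882 genes. Both counts lie near the shares of the 6882 genes. The median ratio of higher to lower was 1.51 for the 50 genes and 1.38 for the 6882. In antrum it was almost as wide for the 50 genes, at 1.47, against 1.19 for the 6882. The median log2 difference of forestomach 1 minus forestomach 2 was 0.57 for the 50 genes and 0.38 for the 6882. The widest ratios were 3.84-fold for Cenpf, 3.22-fold for Mki67, 2.64-fold for Smc4 and 2.35-fold for Cenpe. The narrowest were 1.01-fold for Aurkb, 1.06-fold for Pttg1 and 1.09-fold for Cks2 and Cenpa. The genes with the widest ratios were among those called in neither comparison, and those with the narrowest were called in both. The spread between the forestomach libraries enters the SE behind each call, so this relation is partly built in.

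The antrum libraries also differed, in a direction that most other genes did not share. Antrum 2 was higher than antrum 1 for 49 of the 50 genes, against 31.2% of the 6882. The median log2 difference of antrum 2 minus antrum 1 was 0.52 for the 50 genes and -0.16 for the 6882, and 2 of the 50 (4.0%) differed over 2-fold, against 1.42%. In corpus the libraries were close, with corpus 2 higher for 27 of 50, against 21.2% of the 6882. The median ratio was 1.08, against 1.16, and none of the 50 was over 2-fold, against 0.799%. The median log2 difference of corpus 2 minus corpus 1 was 0.02 for the 50 genes and -0.18 for the 6882.

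The difference between libraries of a region moved with transcript length. Lengths of the longest protein-coding transcript in GENCODE M21 were found for all 50 genes and for 6258 of the 6834 other genes with at least 5 CPM in every library (91.6%). Across genes, which are not independent replicates, Spearman's rho of length with the log2 ratio of forestomach 1 over forestomach 2 was 0.71 for the 50 mitotic genes and 0.57 for the other genes. For antrum 2 over antrum 1 it was 0.53 and 0.23, and for corpus 2 over corpus 1 it was 0.48 and 0.32. The points share their libraries and their depth. The 25 shorter genes (692 to 3334 bases) had a median log2 ratio of forestomach 1 over forestomach 2 of 0.38, and the 25 longer ones (3369 to 11130 bases) of 0.83.

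The fold changes between regions moved with length as well. Spearman's rho with the log2 fold change was 0.50 for the 50 genes and 0.35 for the other genes in antrum over forestomach, and 0.42 and 0.29 in corpus over forestomach. Of the 25 shorter genes, 18 fell in antrum and 25 in corpus, with median log2 fold changes of -1.37 and -1.90. Of the 25 longer genes, 10 fell in antrum and 17 in corpus, with medians of -0.79 and -1.29. The part of transcript length in these differences was not tested.

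**Figure D4:**
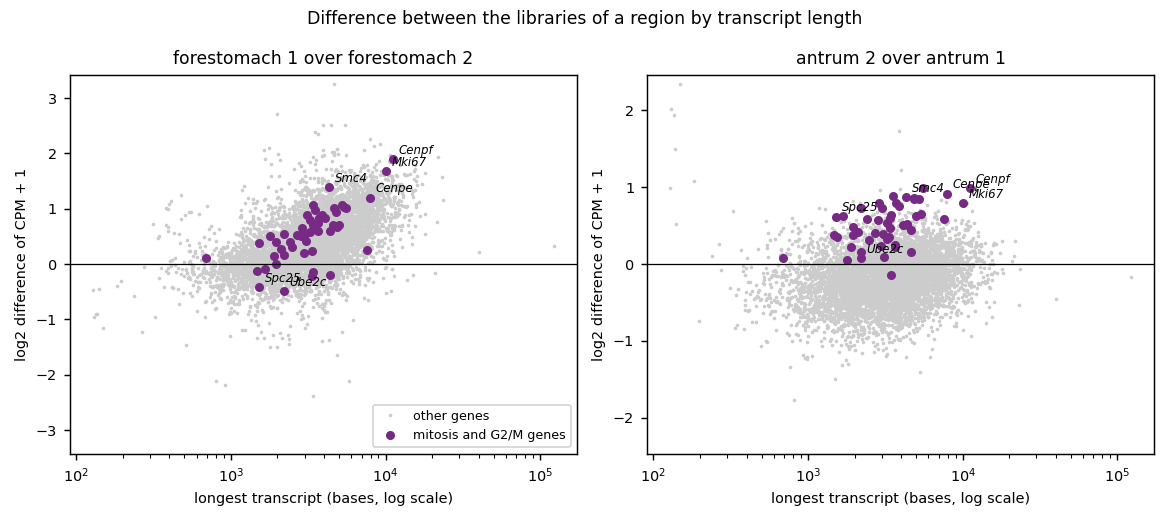
Log2 ratio between the libraries of a region against transcript length in bases (log axis), for forestomach 1 over forestomach 2 and for antrum 2 over antrum 1, with the 50 mitotic genes over the other genes with at least 5 CPM in every library. Longer mitotic genes lie higher in both panels, with medians of 0.38 and 0.83 for the shorter and longer 25 genes in forestomach.

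Between the glandular cultures, the mitotic genes stood somewhat higher in antrum, but none was called. The antrum mean was above the corpus mean for 50 of the 50 genes, and both antrum libraries lay above both corpus libraries for 42 of them, against 45.4% of all tested genes. The median log2 fold change was 0.55, against 0.21 for all tested genes, with a range of 0.12 to 0.77. With limma 0 of the 50 passed in either direction, where 0.555% of tested genes were higher and 0.202% lower. At an unadjusted p under 0.05, 6 were higher and 0 lower, against 6.66% and 1.27% of tested genes, and limma-voom on inferred reads called 0 too. Cdk1 had a log2 fold change of 0.43 (adjusted p = 0.802, SE 0.28), Ccnb1 of 0.46 (adjusted p = 0.775, SE 0.27) and Ccnb2 of 0.35 (adjusted p = 0.828, SE 0.27). Top2a had a log2 fold change of 0.48 (adjusted p = 0.828, SE 0.42) and Mki67 of 0.64 (adjusted p = 0.828, SE 0.51).

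Relative to all tested genes, the lead of antrum over corpus rested on antrum 2. Without antrum 2 the median of the 50 genes was 0.25 and that of all tested genes 0.28, and without antrum 1 they were 0.83 and 0.15. Among all tested genes 66 were higher and 24 lower in antrum over corpus, and 42 higher and 25 lower after rescaling to a common median ratio. That rescaling set the median of all genes to 0.01 and that of the mitotic genes to 0.33, and turned Bub3 to -0.05 and Kif18a to -0.09. Aurkb, Cdc20 and Anln, with log2 fold changes of 0.66, 0.58 and 0.66, had antrum libraries above both corpus libraries without passing the adjusted threshold (adjusted p = 0.586, 0.686 and 0.686).

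Other genes of the cell division programme were read for comparison. Of all tested genes, 18.7% fell and 20.2% rose in antrum, and 26.5% fell and 17.1% rose in corpus. These shares also changed when single libraries were left out. Of 61 tested genes of mitosis outside the 50, 35 fell in antrum and 50 in corpus, and none rose, with medians relative to all tested genes of -0.92 and -1.21. Fam64a had 3.33 and 4.14 CPM in antrum, 2.06 and 1.89 CPM in corpus, and 28.0 and 27.2 CPM in forestomach. This was a wide separation from forestomach, with a log2 fold change of -2.60 (adjusted p = 3.25e-05, SE 0.24) in antrum and -3.27 (adjusted p = 8.07e-06, SE 0.24) in corpus. Fam83d, a spindle protein, had 5.55 and 6.74 CPM in antrum, 4.75 and 3.84 CPM in corpus, and 27.1 and 28.8 CPM in forestomach, with log2 fold changes of -2.02 and -2.46. Leaving out single libraries moved the antrum count between 15 (without antrum 1) and 42, and the corpus count between 37 and 54.

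The anaphase promoting complex, the ligase that Cdc20 activates, had 6 of 16 tested genes lower and 1 higher in antrum, and 8 lower in corpus. For all tested genes the shares were 18.7% lower and 20.2% higher in antrum, and 26.5% lower in corpus. Its subunit gene Cdc23 had 22.1 and 21.9 CPM in antrum, 19.8 and 16.2 CPM in corpus, and 76.1 and 56.1 CPM in forestomach. All glandular libraries were below forestomach, with a log2 fold change of -1.53 (adjusted p = 0.00184, SE 0.27) in antrum and -1.81 (adjusted p = 0.000637, SE 0.27) in corpus; Cdc23 overlaps Kif20a on the opposite strand, and reads of the pair may not be told apart. Ube2s, the enzyme that extends ubiquitin chains, fell, with a log2 fold change of -1.09 (adjusted p = 0.0105, SE 0.27) and -1.33 (adjusted p = 0.00343, SE 0.27). Anapc2, the cullin subunit, was higher in antrum, with a log2 fold change of 0.86 (adjusted p = 0.0413, SE 0.29), and not called in corpus, with 0.45 (adjusted p = 0.237, SE 0.29). The call of Ube2s was lost without antrum 1 or antrum 2 in antrum (adjusted p = 0.0513 and 0.0856) and without corpus 2 in corpus (adjusted p = 0.0627), and that of Anapc2 when any single library other than forestomach 1 was left out. Leaving out single libraries moved the counts lower between 1 and 6 in antrum and between 1 (without corpus 2) and 11 in corpus.

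Cohesin holds sister chromatids together until securin is destroyed. Of 16 tested genes 2 fell in antrum, where 18.7% of all tested genes fell, and 4 in corpus, where 26.5% did, so these counts are near those of all genes. The list had medians relative to all tested genes of 0.14 and 0.16. Cdca5, which encodes sororin, had 4.78 and 6.16 CPM in antrum, 4.8 and 3.61 CPM in corpus, and 15.5 and 17.4 CPM in forestomach. It fell in both cultures, with a log2 fold change of -1.44 (adjusted p = 0.00221, SE 0.26) and -1.75 (adjusted p = 0.000655, SE 0.26), and so did Sgol2, a protector of centromeric cohesin, with -1.13 (adjusted p = 0.0199, SE 0.32) and -1.58 (adjusted p = 0.00347, SE 0.32). The antrum call of Sgol2 was lost without antrum 1 or forestomach 1 (adjusted p = 0.135 and 0.0801). The counts of the list changed when either forestomach library was left out, as did those of all tested genes.

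Of 12 tested transcription factors of the G2/M programme and subunits of the MuvB core, 4 fell in antrum and 6 in corpus. The shares of all tested genes that fell were 18.7% and 26.5%. Mybl2, the activator that binds MuvB, had 8.26 and 8.42 CPM in antrum, 4.56 and 4.32 CPM in corpus, and 15.2 and 18.7 CPM in forestomach. Antrum lay between corpus and forestomach, with a log2 fold change of -0.94 (adjusted p = 0.0156, SE 0.25) in antrum and -1.72 (adjusted p = 0.000534, SE 0.25) in corpus. E2f7, an atypical repressor of the E2F family, had 4.52 and 6.57 CPM in antrum, 2.82 and 2.87 CPM in corpus, and 18.4 and 16.8 CPM in forestomach, with a log2 fold change of -1.53 (adjusted p = 0.00151, SE 0.26) in antrum and -2.28 (adjusted p = 0.00013, SE 0.26) in corpus. Without antrum 1 or antrum 2, 1 of the 12 was called lower in antrum and Mybl2 was not (adjusted p = 0.0869 and 0.0802), and in corpus the range over single libraries left out was 3 to 8.

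Genes of the preceding S phase were lower too. Of 40 tested DNA replication genes 26 fell in antrum and 37 in corpus, and none rose, with medians relative to all tested genes of -0.86 and -1.23. Rrm2, the inducible subunit of ribonucleotide reductase, had 30.7 and 40.5 CPM in antrum, 20.1 and 21.3 CPM in corpus, and 170.2 and 187 CPM in forestomach. Forestomach stood far above the other cultures, with a log2 fold change of -2.31 (adjusted p = 0.000124, SE 0.27) in antrum and -3.05 (adjusted p = 2.11e-05, SE 0.27) in corpus, and its partner Rrm1 fell, with -2.04 (adjusted p = 0.00109, SE 0.33) and -2.74 (adjusted p = 0.000177, SE 0.33). The antrum count of this list was 5 without antrum 1, 15 without antrum 2 and 17 without either corpus library. The corpus count was between 27 and 37.

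Among 13 tested G1 and S phase cyclins, their kinases and E2F factors, 4 fell in antrum and 7 in corpus. Of all tested genes, 18.7% and 26.5% fell. Ccne1 and Ccne2 encode E-type cyclins, which start S phase. Ccne2 had 3.54 and 5.59 CPM in antrum, 2.82 and 3.36 CPM in corpus, and 7.32 and 23.3 CPM in forestomach. Unlike most mitotic genes it was higher in forestomach 2 than in forestomach 1, and it fell, with a log2 fold change of -1.38 (adjusted p = 0.038, SE 0.45) in antrum and -1.8 (adjusted p = 0.0107, SE 0.45) in corpus. The antrum call of Ccne2 was lost when any single library other than forestomach 1 was left out, and its value was -0.61 without forestomach 2. It was also lost with no filter (adjusted p = 0.0787), scaled to the listed total (adjusted p = 0.0865) and in the fit of 2 groups only (adjusted p = 0.0536). The corpus call of Ccne2 was lost without corpus 1. Ccne1 fell, with a log2 fold change of -1.06 (adjusted p = 0.023, SE 0.31) and -1.67 (adjusted p = 0.00211, SE 0.31). Its antrum call was lost scaled to the listed total (adjusted p = 0.0593) and in the fit of 2 groups only (adjusted p = 0.0501). The same held without antrum 1, antrum 2 or forestomach 2. After rescaling to a common median ratio the antrum calls of Ccne1 and Ccne2 were lost (adjusted p = 0.0575 and 0.0848), and the antrum count of the list was 2. It was 0 without antrum 1, 1 without antrum 2 or forestomach 2, and 2 without either corpus library, and the corpus count was 4 without corpus 2. E2f2, an activating E2F factor, had 1.76 and 2.43 CPM in antrum, 2.33 and 2.58 CPM in corpus, and 0.56 and 0.35 CPM in forestomach. It reached the filter level only through the glandular libraries, so its higher level there is given without a test.

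Of 21 tested CDK inhibitors and genes of cell cycle exit, 3 fell and 2 rose in antrum, where 18.7% of all tested genes fell and 20.2% rose, so the antrum counts say nothing particular about the list. In corpus 8 fell, against 26.5% of all tested genes. Sesn1 and Ccng1, both known targets of p53, led those that fell. Sesn1 had 3.25 and 3.28 CPM in antrum, 3.28 and 3.08 CPM in corpus, and 43.3 and 12.5 CPM in forestomach. Forestomach 1 was far above forestomach 2, and both were above all glandular libraries, with a log2 fold change of -2.52 (adjusted p = 0.00234, SE 0.47) in antrum and -2.55 (adjusted p = 0.00206, SE 0.47) in corpus. Ccng1 had 285 and 249 CPM in antrum, 191 and 150.2 CPM in corpus, and 763 and 697 CPM in forestomach, with a log2 fold change of -1.45 (adjusted p = 0.00388, SE 0.29) in antrum and -2.10 (adjusted p = 0.000426, SE 0.29) in corpus. The antiproliferative gene Btg1, with a log2 fold change of 0.82 (adjusted p = 0.0495, SE 0.29), and E2f5, a repressive E2F factor, with 0.72 (adjusted p = 0.0399, SE 0.24), rose in antrum, and both calls were lost when any single library other than forestomach 1 was left out. The counts of this list changed when single libraries were left out, as did those of all tested genes. In antrum over corpus, 0 genes of these 7 lists were called in either direction with limma.

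**Figure D5:**
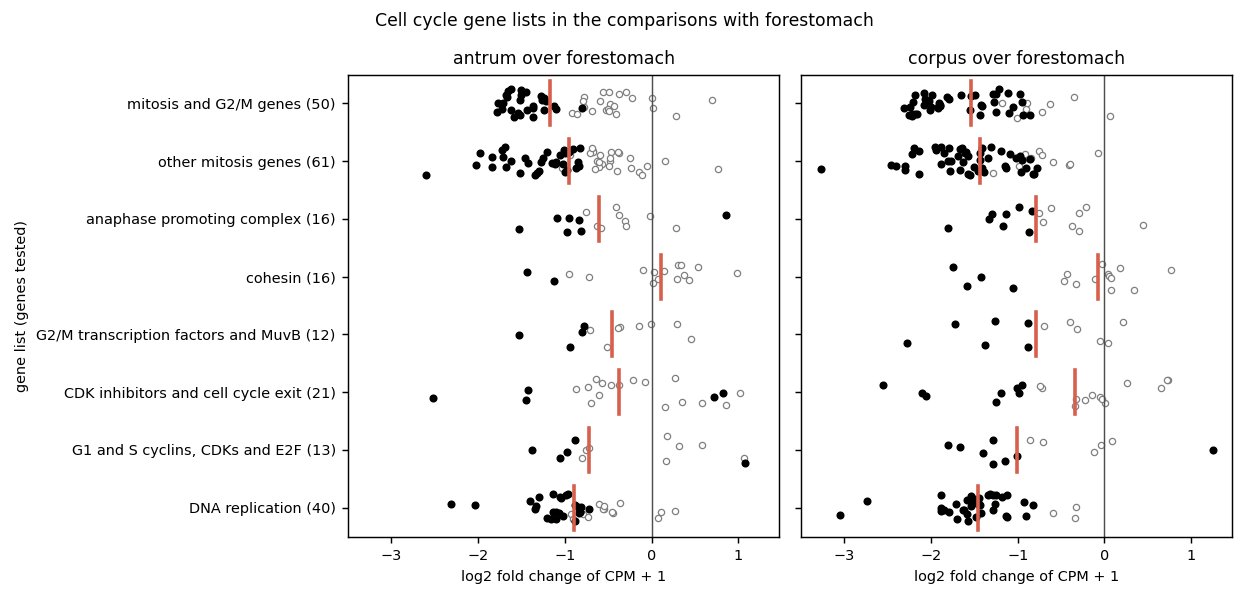
Log2 fold changes of the tested genes of the 50 mitotic genes and of the 7 other cell cycle lists, in antrum over forestomach and corpus over forestomach. Each point is a gene, filled where it passed an adjusted p of 0.05, and the red line is the list's median. The filled point right of 0 in the corpus panel is E2f2, which reached the filter level only through the glandular libraries. Medians of the mitotic, other mitosis and DNA replication lists lie furthest below 0, and cohesin lies near it.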

How the data were processed

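Per the labels' protocols, the 6 libraries were made from total RNA after Ribo-Zero depletion. The authors deposited 1 table of CPM values rounded to 2 decimals. STAR, HTSeq, DESeq2 and edgeR with the mm9 build are named, with no version or role, per the submitters' processing notes. The table's columns carry a region and a number, so each could be placed in a region but tied to no single sample. Symbols turned into dates were left out (19 of 15450 rows). Genes with at least 1 CPM in at least 2 libraries, 11891 in all, were fitted as log2(CPM + 1) with limma 3.58.1 in R 4.3.3, with 3 group means, an intensity trend and no block (3 residual degrees of freedom, 6.1 prior ones). Tests were two-sided, adjusted over all tested genes by Benjamini-Hochberg at 0.05. Total reads came from the even steps of low CPM values, whole within 0.0051 CPM, and cover counting error only. Python 3.11.15 made counts and figures.

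The members and lists were chosen with earlier results of these data known. The text names Mki67, Top2a, Cdk1, Ccnb1 and Ccnb2, the leading called genes of each role and list, the 4 members each with the widest and the narrowest forestomach ratio, and further members for completeness. Alternatives were other pseudocounts (0.5 and 0.1), filters (none, 5 CPM), scalings, no trend, a replicate block, a fit of 2 groups only, limma-voom on inferred reads, and leaving out each library. The fit was also run on simulated data, with 100 genes changed 2-fold and 100 changed 4-fold, and its outcome is not given here.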

Additional observations from a re-analysis of the deposited data

How the results depend on the processing

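Under the planned changes of pseudocount, filter, scaling, trend and fit, 27 to 28 of the 50 mitotic genes fell in antrum over forestomach and 36 to 42 in corpus over forestomach. Leaving out single libraries moved these counts to 14 to 35 and 28 to 49. The count higher in antrum over forestomach was 0 to 2, where Kif23 and Mki67 passed without forestomach 1. Without single libraries, all tested genes called numbered 3070 to 5397 in antrum over forestomach (4630 with all) and 3031 to 5816 in corpus over forestomach (5178 with all). In antrum over corpus, the 90 genes called became 54 with no filter, 56 scaled to the listed total, 48 with no trend, 26 with the 2 groups alone, 54 with limma-voom on inferred reads (chosen after seeing the data), and 19 to 33 without single libraries. Rescaling to a common median ratio gave 3092 higher and 2548 lower in corpus over forestomach, against 2032 and 3146 as deposited, and 42 and 25 in antrum over corpus, against 66 and 24.

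Directions that turned were all of values not called in the fit of all libraries. Without single libraries, log2 fold changes in antrum over forestomach ranged from -0.82 to 0.38 for Cenpe, -0.94 to 0.96 for Cenpf, -0.14 to 1.54 for Mki67, -0.95 to 0.13 for Top2a, -0.39 to 0.44 for Ect2, -1.0 to 0.02 for Kif20b, -1.0 to 0.02 for Ncapd2 and -0.26 to 0.82 for Kif23. In corpus over forestomach they ranged from -1.58 to 0.32 for Cenpf, -0.78 to 0.90 for Mki67 and -0.89 to 0.19 for Kif23. In antrum over corpus, Bub3 was -0.05 and Kif18a -0.09 after median-ratio rescaling, Kif18a was -0.04 when scaled to the listed total, and without single libraries Pttg1 ranged from -0.01 to 0.61, Smc4 from -0.04 to 0.83, Kif18a from -0.18 to 0.42 and Nuf2 from -0.02 to 0.57. The cause was not tested.

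The column numbers were not shown to pair the libraries: over 11891 genes, library 1 minus library 2 correlated at 0.61 between antrum and corpus, -0.11 between antrum and forestomach and -0.06 between corpus and forestomach. With the replicate block, 28 mitotic genes fell in antrum over forestomach and 40 in corpus over forestomach, where Nusap1 and Ndc80 were lost, and 33 genes were called in antrum over corpus. The planned edgeR and DESeq2 fits were not run, because reads inferred from rounded CPM were not judged exact enough to serve as counts. The limma-voom fit used the same inferred reads and shares this limit. With 2 libraries per region, a missed threshold does not show equal levels.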
